A study of Rattus norvegicus with 12 samples.

Results

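The unfolded protein response of the endoplasmic reticulum (ER) was followed through 10 genes, Hspa5, Hsp90b1, Calr, Pdia4, Pdia6, Dnajb9, Dnajc3, Herpud1, Xbp1 and Ddit3, in cells washed out of rat lungs. A gene was read from a probe set that names it alone. Each of the 10 genes had exactly 1 such probe set, so no second probe set was left as a check, and all 10 passed the filter on low intensities. They stand among 14218 genes named by a probe set of their own, of which 12853 passed that filter. Most of the 10 had their highest mean intensity under LPS alone. Of the 10, 8 were called higher in LPS than in CTL, where 0.868% of all probe sets tested were called higher. In COMB, where hypoxia was added to LPS, 5 were called lower than in LPS, where 5.27% of probe sets were called lower. Of these 5, 4 were among those 8 and 1 was Xbp1. Ddit3, the gene of the transcription factor CHOP, had its highest intensities in COMB.

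The study asked how hypoxia alters the response of the lung to a low dose of LPS, the endotoxin that TLR4 recognises. Male Sprague-Dawley rats, 8 weeks old and of no modified genotype named in the labels, were divided into 4 groups. COMB rats received 0.5 mg/kg LPS into the tail vein and then spent 6 h in a decompression chamber at 405.35 mmHg, which equals an altitude of 5000 m or 11.2% O2. LPS rats received the same dose in normoxia, HPO rats underwent only the chamber, with no injection named for them, and CTL rats received saline in normoxia. Food and water were withheld from all rats, and chloral hydrate anesthesia preceded lavage of the right lung. The labels give no interval between LPS and lavage for the LPS group.

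Bronchoalveolar lavage fluid (BALF) cells are mainly alveolar macrophages in a healthy lung, with neutrophils and other leukocytes joining them in inflammation. Their total RNA was pooled and hybridised to 12 Affymetrix rat genome arrays, 3 pools for each group. The labels list 3 rats for each LPS, HPO and CTL pool, but 2, 2 and 3 rats for the COMB pools, although the study describes pools of 3. A pool averages its rats, so an SD below is the spread between 3 pools and not between animals. These are also RNA pools of mixed cells, in which fewer cells of a type and less RNA per cell cannot be told apart.

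When proteins misfold in the ER, 3 sensors in its membrane respond. IRE1 splices the Xbp1 mRNA so that it encodes an active transcription factor, ATF6 is cut in the Golgi apparatus to free another, and PERK phosphorylates eIF2α, which slows translation in general but favors ATF4 and, through it, CHOP. ATF6 and XBP1 raise chaperones, oxidoreductases and the machinery that returns misfolded proteins to the cytosol for degradation, whereas CHOP is linked to cell death when stress persists. Macrophages use the same system when they begin to secrete cytokines, and GRP94, the product of Hsp90b1, is needed to fold several Toll-like receptors.

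Many genes of the response are known to carry an ER stress response element (ERSE) near their start, a CCAAT box held at a fixed distance from a CCACG box, so the RefSeq promoters of the 10 genes are shown here before their values. A window of 300 bases, 250 before and 50 after the start, was found for 9 of them in the GRCr8 table (not Pdia6). The ERSE letters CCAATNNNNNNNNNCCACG, searched on both strands, occurred in 5 of these 9 windows, against 22 of all 33469 windows of this length (0.0657%). The windows with a match belonged to Hspa5, Hsp90b1, Dnajc3, Xbp1 and Calr. Because the element is known from genes of this response, these counts describe the windows and test nothing. The Hspa5 window, chr3:38452766-38453065 on the plus strand, has its element, in capitals, beginning 43 bases before the start.
Hspa5: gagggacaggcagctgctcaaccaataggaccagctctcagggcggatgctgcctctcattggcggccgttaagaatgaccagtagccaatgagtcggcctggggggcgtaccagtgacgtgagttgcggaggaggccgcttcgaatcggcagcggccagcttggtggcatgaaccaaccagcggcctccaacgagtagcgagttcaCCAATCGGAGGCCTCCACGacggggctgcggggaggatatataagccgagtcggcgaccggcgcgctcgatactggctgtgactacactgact
The elements of the other 4 genes follow, each as read on its own strand, with the 2 boxes in capitals and the spacer in lower case. They lie at chr7:23012451-23012469 and, on the strand opposite to the gene, chr7:23012347-23012365 for Hsp90b1, at chr15:102432534-102432552 for Dnajc3, at chr14:84604558-84604576 for Xbp1, and at chr19:40213135-40213153, opposite to the gene, for Calr.
Hsp90b1 first element: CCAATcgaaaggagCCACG
Hsp90b1 second element: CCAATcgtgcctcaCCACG
Dnajc3: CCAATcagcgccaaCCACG
Xbp1: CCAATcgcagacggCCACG
Calr: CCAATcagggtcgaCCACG

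Herpud1 was the 1 gene of the 9 with ERSE-II, ATTGGNCCACG (17 of 33469 windows, 0.0508%), and with the amino acid response element TGATGCAA, bound by ATF4 and CHOP (0.795% of windows). Its window, chr19:10614658-10614957 on the minus strand, is shown with both in capitals, the amino acid response element as its reverse complement.
Herpud1: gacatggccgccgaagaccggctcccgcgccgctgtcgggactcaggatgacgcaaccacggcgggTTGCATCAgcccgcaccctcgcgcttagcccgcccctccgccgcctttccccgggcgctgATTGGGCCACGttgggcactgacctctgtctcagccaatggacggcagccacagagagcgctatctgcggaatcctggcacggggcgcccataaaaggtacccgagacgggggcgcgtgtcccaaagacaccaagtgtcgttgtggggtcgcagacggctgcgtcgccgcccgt
The windows of Ddit3, Pdia4 and Dnajb9 held no exact match to these 3 motifs. Those of Ddit3 and Pdia4 hold cgtgccgctttctgattgg and agtggcagccggtgattgg. Each is an ERSE on the opposite strand but for a letter of its CCACG box, and such inexact matches were not searched over all windows. The exact letters TGACGTGG, a core bound by XBP1 and ATF6, and TGACGTCA, a cyclic AMP response element, were in none of the 9 (0.595% and 1.83% of all windows), and the plain CCAAT box, which overlaps every ERSE, was in all 9 (37.5% of all windows). No relation between motifs and intensities was tested. The Ddit3 window, chr7:65001445-65001744 on the plus strand, is also shown.
Ddit3: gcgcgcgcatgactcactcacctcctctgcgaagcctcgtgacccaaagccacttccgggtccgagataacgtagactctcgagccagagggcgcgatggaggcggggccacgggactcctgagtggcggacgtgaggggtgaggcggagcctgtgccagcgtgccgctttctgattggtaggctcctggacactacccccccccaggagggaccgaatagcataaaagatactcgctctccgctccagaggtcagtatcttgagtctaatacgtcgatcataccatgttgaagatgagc
A match is a run of letters and not a measured binding site, and only exact letters were searched.

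Levels below are deposited linear intensities, and tests were made on log2(intensity + 1) with limma, adjusted by Benjamini-Hochberg over the 25692 probe sets tested, with calls at an adjusted p under 0.05. Array medians lay between 32.7 and 35.6. One array stood apart: COMB pool 1, of rats 2 and 3, reached a correlation of 0.977 with its nearest array, whereas the other 11 arrays reached 0.988 to 0.994. CTL pool 2, of rats 5, 6 and 7, had summed neutrophil marker intensities of 3020, against 528 and 497 in the other CTL pools. The number of the 10 genes called in a comparison is given without either array where it changes. In all comparisons the fold change is on the log2(intensity + 1) scale, and COMB, LPS and HPO were set against the same 3 CTL arrays.

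**Figure D1:**
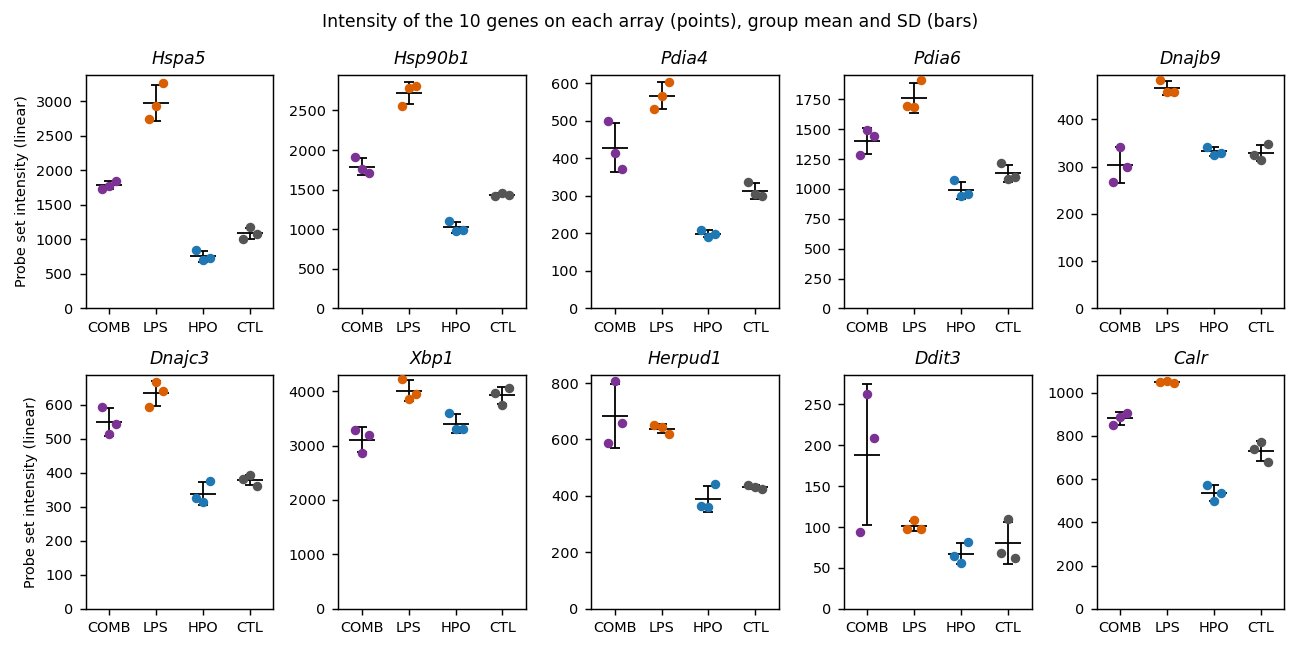
Intensity (linear scale, axis from 0) of the 10 genes on each of the 12 arrays; columns are COMB, LPS, HPO and CTL, points are pools, and bars are the mean and SD of 3 pools. Hspa5, Hsp90b1, Pdia4, Pdia6, Calr and Dnajc3 share one order of means, LPS highest and HPO lowest; Ddit3 reaches 263 and 209 in 2 COMB pools against 62.3 to 110.1 in CTL.

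The chaperones Hspa5, Hsp90b1 and Calr were higher in LPS than in CTL. Hspa5, which encodes BiP, the Hsp70 chaperone that binds unfolded chains and also keeps the sensors inactive, had intensities of 2736, 2931 and 3255 in the LPS pools, against 1003, 1173 and 1082 in the CTL pools. Each LPS pool was above each CTL pool by more than 2-fold, and the fitted fold was 2.74 (95% interval 2.34 to 3.20, limma adjusted p = 6.51e-05). Hsp90b1, the ER member of the Hsp90 family, gave 2558, 2787 and 2811 in LPS against 1420.3, 1456 and 1435 in CTL. Its CTL pools were nearly equal, and its fold was 1.89 (interval 1.65 to 2.16, adjusted p = 6.06e-04). Calr, the calcium-binding lectin chaperone, gave 1048, 1054 and 1044 in LPS against 739, 770.0 and 677 in CTL, a fold of 1.44 (interval 1.26 to 1.64, adjusted p = 0.0136). The 3 LPS pools of Calr were nearly equal, with an SD of 5.14.

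The disulfide isomerases and the J-domain co-chaperones of BiP moved with them. Pdia4 had 531, 567 and 602 in LPS and 337, 304 and 299 in CTL (fold 1.81, limma adjusted p = 0.00462). Pdia6, which also dampens IRE1, had 1694, 1689.5 and 1908 in LPS and 1214, 1082 and 1102 in CTL (fold 1.56, adjusted p = 0.0104). The groups of both genes did not overlap. Dnajc3, a co-chaperone known as an inhibitor of PERK, had 594, 666 and 641 in LPS against 382, 393 and 361 in CTL (fold 1.67, adjusted p = 0.00462). Dnajb9, which recruits BiP to IRE1, had 484, 458 and 457 in LPS against 324, 313 and 347 in CTL (fold 1.42, adjusted p = 0.0263). Herpud1, a membrane scaffold of ER-associated degradation, had 651, 645 and 620.3 in LPS against 440.0, 431 and 426 in CTL (fold 1.48, adjusted p = 0.0380). Of these 8 higher genes none had an LPS pool within the CTL range.

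The remaining genes, those of the transcription factors, did not pass. Xbp1 was the most intense of the 10 probe sets and had 4231, 3847 and 3949 in LPS against 3963, 3752 and 4048 in CTL (log2 fold change 0.03, interval -0.16 to 0.23). The probe set reads Xbp1 mRNA without separating its spliced form, as far as the sources used here say. Ddit3 had 97.6, 109 and 97.9 in LPS against 68.4, 110.1 and 62.3 in CTL (log2 fold change 0.38, interval -0.32 to 1.08). The CTL pool with 110.1 was that with high neutrophil markers. Its summed T and NK cell marker intensity, 1911, was also the highest of CTL, and no relation of markers to Ddit3 was tested. Thus 8 of 10 genes were called higher and 0 lower in LPS against CTL, where 0.868% of all probe sets were called higher and 1.18% lower. The 8 also had no overlap between groups, which held for 11.3% of probe sets in that direction, and the median log2 fold change was 0.60 over the 10 genes and -0.02 over the 12853 genes tested. Hspa5, Hsp90b1, Pdia4 and Dnajc3 stayed called with any 1 array left out, whereas the other 4 calls did not. Omitting CTL pool 1, 2 or 3 (rats 1, 3 and 4; 5, 6 and 7; 8, 9 and 10) left 5, 6 and 4 genes called, and omitting LPS pool 1, 2 or 3 (rats 2, 3 and 6; 5, 7 and 11; 8, 9 and 10) left 5, 6 and 4. The Herpud1 call was lost with arrays centred on their medians (adjusted p = 0.0610) or with the first rat number of each pool as a block (adjusted p = 0.0509).

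Hypoxia was tested in both settings, with LPS (COMB against LPS) and without it (HPO against CTL). With LPS present, Hspa5 had 1735, 1777 and 1847 in COMB against 2736, 2931 and 3255 in LPS. Every COMB pool lay below every LPS pool and above every CTL pool, and the fold was 0.602 (interval 0.514 to 0.705, limma adjusted p = 0.00169). Hsp90b1 had 1909, 1760.0 and 1704 in COMB against 2558, 2787 and 2811 in LPS (fold 0.659, adjusted p = 0.00188). Pdia4 had 500.4, 414 and 371 in COMB against 531, 567 and 602 in LPS (fold 0.752, adjusted p = 0.0363), with the pool that stood apart, rats 2 and 3, highest. Pdia6, with 1282, 1489 and 1439 in COMB against 1694, 1689.5 and 1908 in LPS, lay just beyond the threshold (fold 0.796, adjusted p = 0.0503). It passed under 7 other settings of the limma fit, among them quantile normalization (adjusted p = 0.0254). Calr, with 850.1, 885 and 905 in COMB against 1048, 1054 and 1044 in LPS, had a fold of 0.839 and an adjusted p of 0.0819 although its groups did not overlap.

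Dnajb9 was no higher in COMB than in CTL. Its COMB pools, 268, 342 and 298, lay below all LPS pools, 484, 458 and 457, and overlapped the CTL pools, 324, 313 and 347. The fold was 0.647 in COMB against LPS (limma adjusted p = 0.00259) and 0.918 in COMB against CTL (interval 0.791 to 1.07, adjusted p = 0.436). Xbp1 had 3286, 2855 and 3187 in COMB against 4231, 3847 and 3949 in LPS, and was lower in COMB than in LPS (fold 0.775, adjusted p = 0.0210). Dnajc3 and Herpud1 did not pass: Dnajc3 had 594, 513 and 542 in COMB against 594, 666 and 641 in LPS, and Herpud1 587, 806 and 657 in COMB against 651, 645 and 620.3 in LPS. In sum 5 of the 10 genes were called lower and 0 higher in COMB against LPS, where 5.27% of probe sets were called lower and 6.64% higher. Groups did not overlap in 7 of the 10, all lower in COMB, which held for 18.8% of probe sets in that direction. The median log2 fold change was -0.35 over the 10 genes and 0.0048 over all genes tested. Hspa5, Hsp90b1 and Dnajb9 were called with any 1 array left out. Omitting LPS pool 1, LPS pool 3 or COMB pool 2 (rats 10 and 11) left 3 genes called. Omitting COMB pool 1, which stood apart, gave 6, of which 5 were lower and 1, Ddit3, was higher. The split of all calls in this comparison, 1707 higher and 1353 lower, was 1702 and 2375 with quantile normalization and 1384 and 1604 with arrays centred on their medians.

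**Figure D2:**
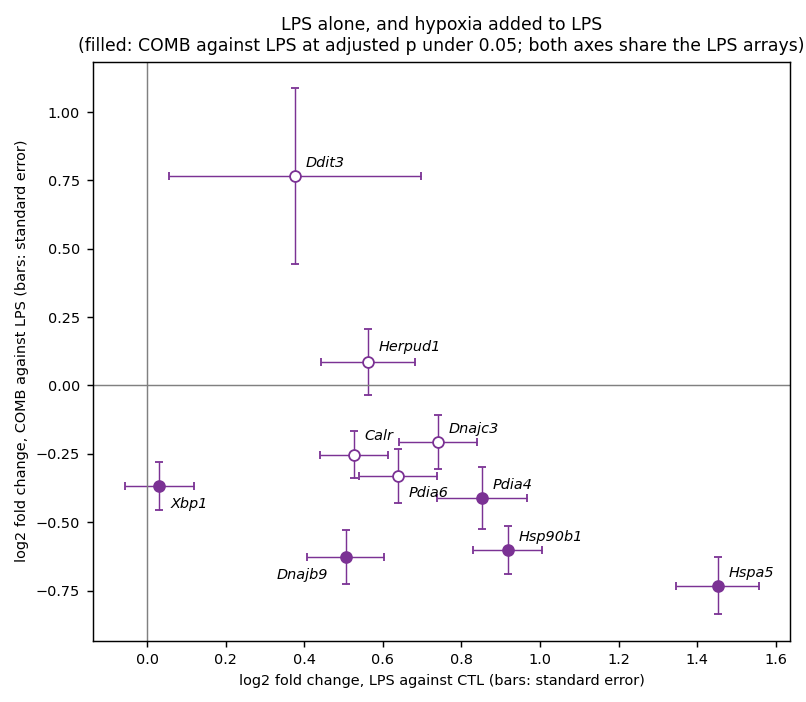
Log2 fold change of each gene in LPS against CTL (x axis) and in COMB against LPS (y axis), with standard errors as bars; filled points passed an adjusted p of 0.05 in COMB against LPS. Hspa5 lies at 1.45 and -0.73, Dnajb9 at 0.51 and -0.63 and Ddit3 at 0.38 and 0.77; both axes contain the LPS arrays, so no relation between them is read from the plot.

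Without LPS, the same chaperones had low intensities after hypoxia, but no gene of the 10 was called. Pdia4 had 209, 191 and 198 in HPO against 337, 304 and 299 in CTL (fold 0.638, interval 0.538 to 0.757, limma adjusted p = 0.0879). Hsp90b1 had 1106, 976 and 989 in HPO against 1420.3, 1456 and 1435 in CTL (fold 0.711, adjusted p = 0.0892). Hspa5 had 843, 696 and 724 in HPO against 1003, 1173 and 1082 in CTL (fold 0.694, adjusted p = 0.104). In all of these the HPO pools were below every CTL pool, and the intervals of the fold before adjustment lay below 1. Calr had 574, 498 and 538 in HPO against 739, 770.0 and 677 in CTL (fold 0.736, adjusted p = 0.104), and Pdia6 had 1071, 938 and 956 in HPO against 1214, 1082 and 1102 in CTL (adjusted p = 0.579). Dnajb9, with 341, 325 and 329 in HPO against 324, 313 and 347 in CTL, was within the CTL range (log2 fold change 0.02, interval -0.20 to 0.23). Xbp1 had 3600.2, 3299 and 3313 in HPO against 3963, 3752 and 4048 in CTL (adjusted p = 0.484).

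Across HPO against CTL, 9 of the 10 log2 fold changes were below 0, where 50.6% of probe sets were. In 6 genes every HPO pool was below every CTL pool, which held for 6.57% of probe sets in that direction. By limma 0 of 10 genes and 9 of 25692 probe sets (0.0350%) were called in this comparison. An unadjusted p under 0.05 was found for 5 of the 10, namely Hspa5, Hsp90b1, Pdia4, Calr and Xbp1. It was found for 2494 of the 25692 probe sets. The count of the 10 genes called was 5 with array weights, where 3576 of 25692 probe sets were called (1782 higher and 1794 lower). Those weights were largest for HPO pool 1 (6.38) and CTL pool 3 (4.12), so these 2 arrays dominate their groups there. It was 1 (Hsp90b1) with a trended and robust prior, where 14 probe sets were called. Without the COMB pool that stood apart it was 2 (Hsp90b1 and Pdia4). Leaving out any 1 array gave 0 to 120 probe sets called. All of the genes called were lower in HPO.

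Whether hypoxia changed the genes differently with and without LPS was tested by the interaction, the COMB to LPS log2 difference less that of HPO to CTL. By limma 0 of the 10 genes were called (0.136% of probe sets were). An unadjusted p under 0.05 was found for 1 of the 10, Dnajb9, and for 3164 of 25692 probe sets. For Hspa5 the interaction was -0.20 on the log2 scale (interval -0.53 to 0.12), and for Hsp90b1 it was -0.11 (interval -0.38 to 0.16). These intervals leave room for a difference in either direction. Dnajb9 had the lowest interaction, -0.64 (interval -0.95 to -0.34, adjusted p = 0.0857), and was called with array weights (-0.59, adjusted p = 0.0131). Ddit3 had the highest, 0.98 (interval -0.01 to 1.97, adjusted p = 0.411), and reached 1.42 (adjusted p = 0.0351) without the COMB pool of rats 2 and 3.

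Set against CTL, most of the chaperones were still higher in COMB. Hspa5 was higher by 1.65-fold (interval 1.41 to 1.93, limma adjusted p = 6.66e-04), Dnajc3 by 1.45-fold (adjusted p = 0.00279) and Herpud1 by 1.57-fold (adjusted p = 0.00288). These 3 calls stood with any 1 array left out. Pdia4 (1.36-fold), Hsp90b1 (1.24-fold), Pdia6 (1.24-fold) and Calr (1.21-fold) were also called, with adjusted p values from 0.0174 to 0.0482. These 4 calls were near the threshold: of 12 omissions of 1 array, Pdia4 stayed called in 9, Hsp90b1 in 7, Pdia6 in 2 and Calr in 2. Without COMB pool 1 the limma adjusted p was 0.0788 for Hsp90b1, 0.0521 for Pdia4 and 0.0575 for Calr, and without CTL pool 2 it was 0.0549 for Hsp90b1, 0.0516 for Pdia4, 0.133 for Pdia6 and 0.0521 for Calr. Weighting pools by their number of rats also lost Pdia6 (0.0504) and Calr (0.0508). The COMB pools of these 4 genes were all above their CTL pools. The share of all probe sets for which this held was not counted. Xbp1 was lower in COMB, 3286, 2855 and 3187 against 3963, 3752 and 4048 in CTL (fold 0.792, adjusted p = 0.0200). Its call stood in 9 of 12 omissions of 1 array, and was lost without CTL pool 1, CTL pool 3 or COMB pool 2. With only COMB and CTL in the fit its limma adjusted p was 0.0574.

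Ddit3 was the most changed gene of the 10 in COMB against CTL and the least even. Its COMB pools had 93.5, 263 and 209, against 68.4, 110.1 and 62.3 in the CTL pools (fold 2.21, interval 1.36 to 3.59, limma adjusted p = 0.0269). The pool of rats 2 and 3, that which stood apart, was the low one and lay within the CTL range, whereas both other COMB pools were above all 9 pools of the other groups. Against LPS, with 97.6, 109 and 97.9, the log2 fold change was 0.77 (adjusted p = 0.145), and it was 1.21 (adjusted p = 0.00525) without that pool. The call against CTL was lost when COMB pool 2, COMB pool 3, CTL pool 1 or CTL pool 3 was omitted, with limma adjusted p values from 0.0891 to 0.107. Array weights turned the COMB against LPS value into a call (limma adjusted p = 0.0221).

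In COMB against CTL, 8 of the 10 genes were thus called higher and 1 lower, where 8.84% of probe sets were called higher and 10.2% lower. The median log2 fold change was 0.38 over the 10 genes and -0.03 over all genes tested. The 9 calls became 6 with arrays centred on their medians (Hsp90b1, Pdia6 and Calr lost) and 3 when only COMB and CTL entered the fit. Omitting CTL pool 1, 2 or 3 left 4, 5 and 3 calls, and omitting COMB pool 1, 2 or 3 left 6, 4 and 6.

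Set against HPO, which shares the chamber with COMB but not the injection of LPS, 8 genes were higher in COMB, all but Dnajb9 and Xbp1 (6.83% of probe sets were called higher and 8.75% lower). Hspa5 was 2.37-fold higher, with 1735, 1777 and 1847 in COMB against 843, 696 and 724 in HPO (limma adjusted p = 4.20e-05). Pdia4 was 2.13-fold higher, with 500.4, 414 and 371 in COMB against 209, 191 and 198 in HPO (adjusted p = 1.69e-04). Ddit3 was 2.57-fold higher (interval 1.58 to 4.17, adjusted p = 0.0143), and all of its COMB pools were above its HPO pools, 64.9, 55.8 and 82.1. For the genes other than Ddit3 the calls stood with any 1 array left out, whereas that of Ddit3 was lost without HPO pool 2, COMB pool 2 or COMB pool 3 (limma adjusted p from 0.0505 to 0.0556). Dnajb9 and Xbp1 were not called, with folds of 0.908 and 0.913.

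**Figure D3:**
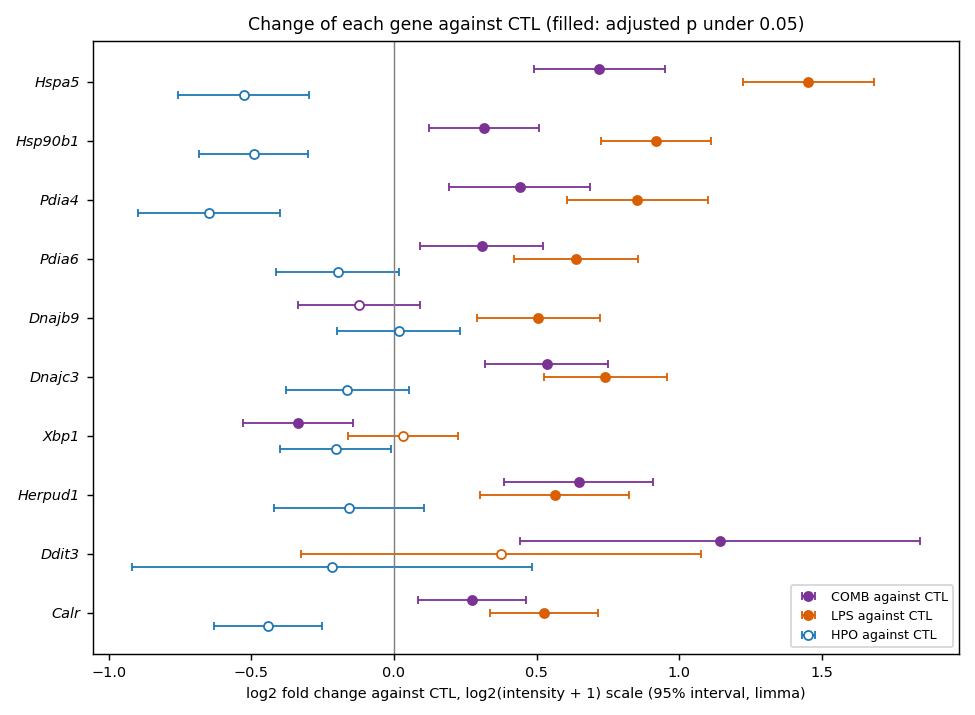
Log2 fold change against CTL of the 10 genes in COMB, LPS and HPO, with 95% intervals from limma; filled points passed an adjusted p of 0.05 and open points did not, and the 3 comparisons share the CTL arrays. LPS lies rightmost for Hspa5 (1.45) and Hsp90b1 (0.92), COMB for Ddit3 (1.14), and no HPO point is filled.

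By the means of the 4 groups, 6 genes (Hspa5, Hsp90b1, Calr, Pdia4, Pdia6 and Dnajc3) had LPS highest, COMB next, and HPO lowest, below CTL. For Hspa5, Hsp90b1 and Pdia4 each step down this order passed the test except that between HPO and CTL. For Pdia6, Calr and Dnajc3 the step between COMB and LPS did not pass either. Herpud1 and Ddit3 had COMB above LPS, neither difference being called, and Dnajb9 and Xbp1 had COMB lowest.

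Over the 12 arrays, which share 4 groups, the first 6 genes followed each other closely. The Pearson correlation of log2 intensities of Hspa5 was 0.99 with Hsp90b1, 0.97 with Pdia6, 0.97 with Calr, 0.96 with Pdia4 and 0.95 with Dnajc3. It was 0.84 with Herpud1, 0.62 with Dnajb9, 0.51 with Ddit3 and 0.24 with Xbp1. Ddit3 correlated with Xbp1 at -0.54 and with Herpud1 at 0.82. These values include how the groups differ. With group means removed, the correlation of Hspa5 was 0.60 with Hsp90b1, 0.57 with Calr and 0.44 with Pdia6. It was 0.05 with Pdia4 and 0.05 with Dnajc3, and its median over the other 9 genes was 0.05.

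Among all 12853 genes, the 10 most like Hspa5 were Hsp90b1, Pdia6, Manf, Calr, Stip1, Pdia4, Hsph1, Dnajc3, Ascc3 and Hnrnpc, with correlations from 0.99 to 0.95. Thus 5 of the other members were within the first 10, beside Manf, a protein of the ER lumen, and the cytosolic chaperone genes Stip1 and Hsph1. The 10 most like Ddit3 were Gbp4, Amigo2, Jak3, Olfm1, Slfn9, Ebi3, Gpr84, Zfp281, Pim2 and Tapbp, with correlations from 0.96 to 0.94. None of these was a member or in the lists of ER and heat shock genes. The lists of ER genes and ATF4 and CHOP targets hold 167 genes (1.30% of genes), the 10 members included. Among the 50 nearest genes, 13 for Pdia4, 12 for Dnajc3, 11 for Hspa5 and 0 for Ddit3, Dnajb9 and Xbp1 were in these lists. Of those, 5 for Pdia4, 4 for Dnajc3 and 5 for Hspa5 were members. The lists were chosen with earlier results of these data known, so these counts test nothing.

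**Figure D4:**
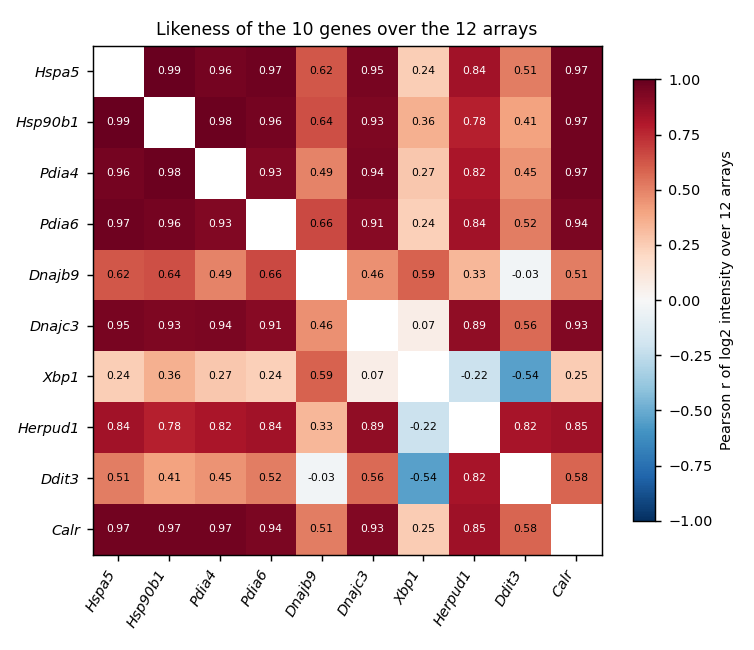
Pearson correlation of log2 intensity between each pair of the 10 genes over the 12 arrays (color scale from -1 to 1). Hspa5, Hsp90b1, Pdia4, Pdia6, Calr and Dnajc3 form a block from 0.91 to 0.99, whereas Xbp1 and Ddit3 correlate at -0.54. The arrays share 4 groups, so the values include group differences.

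Some of the other ER chaperones and foldases were called as well. Of 33 such genes, 4 were called higher and 0 lower in LPS against CTL, where 1.24% of genes were higher and 1.54% lower, and the list's median log2 fold change was 0.14. The 4 were Creld2, Hyou1, Manf and Dnajb11. Creld2, an ER-stress-induced isomerase of the lumen, averaged 720 ± 68.5 in LPS and 310 ± 10.1 in CTL (SD, n = 3 each), a fold of 2.32 by limma (adjusted p = 9.00e-04). Hyou1, the large chaperone that exchanges the nucleotide of BiP, averaged 147 ± 8.23 in LPS and 72.8 ± 2.33 in CTL (fold 2.01, limma adjusted p = 9.93e-04). Most of the list, 29 genes, was not called, among them P4hb, which averaged 2465 ± 98.3 in LPS and 1945 ± 50.1 in CTL (SD, n = 3 each).

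In COMB against LPS, 0 of the 33 were called higher and 4 lower (8.64% of genes were higher and 5.04% lower), namely Erp29 (log2 fold change -0.58), Rcn1 (-0.50), Canx (-0.36) and Erp44 (-0.30). Canx encodes calnexin, the membrane partner of calreticulin. The 4 genes called in LPS against CTL were not called in COMB against LPS, with log2 fold changes of -0.27 for Manf (interval -0.48 to -0.06, limma adjusted p = 0.0887), -0.09 for Dnajb11, -0.08 for Creld2 and 0.04 for Hyou1. In COMB against CTL, 5 were higher and 0 lower, where 11.0% of genes were called in each direction, with Creld2 at 2.19-fold, Hyou1 at 2.06-fold and Ero1b, an oxidase of the isomerases, at 1.91-fold. In COMB against HPO 5 were higher and 1 lower, where 9.18% of genes were higher and 9.36% lower. In HPO against CTL none was called by limma. An unadjusted p under 0.05 was found there for 4 of the 33 and for 2494 of 25692 probe sets.

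**Figure D5:**
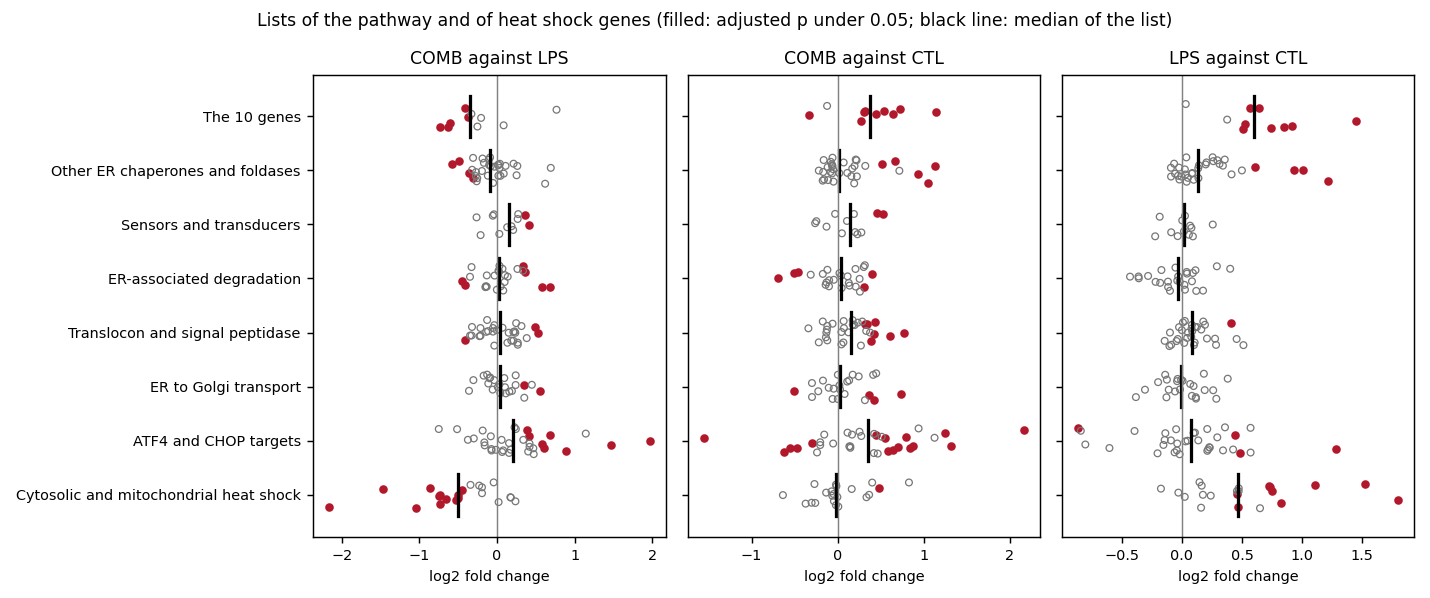
Log2 fold change of the genes of 8 lists in COMB against LPS, COMB against CTL and LPS against CTL; each point is a gene, filled where the adjusted p was under 0.05, and the black line is the median of the list. The 10 genes have medians of -0.35, 0.38 and 0.60 in the 3 panels from left to right. The other ER chaperones and foldases have -0.09, 0.02 and 0.14, and heat shock genes have -0.50, -0.02 and 0.46. The comparisons share arrays.

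The sensors themselves were not called. Atf6 averaged 603 ± 52.5 in COMB, 531 ± 66.2 in LPS, 506 ± 86.0 in HPO and 523 ± 23.5 in CTL (SD, n = 3 each). Eif2ak3, which encodes PERK, had pools from 143 to 178 in COMB, 160.2 to 171 in LPS, 157 to 183 in HPO and 158 to 165 in CTL. Neither gene was called in any of the 6 comparisons, and Ern1, the gene of IRE1, had no probe set that named it alone. Atf4, the factor translated when PERK is active, averaged 2600.4 ± 47.4 in COMB, 2021 ± 28.3 in LPS, 1771 ± 138 in HPO and 1898 ± 71.3 in CTL. It was higher in COMB than in LPS (fold 1.29, limma adjusted p = 0.0163) and than in CTL (fold 1.37, adjusted p = 0.00274), and it was not called in LPS against CTL. Of the 12 sensors and transducers tested, 2 were called higher in COMB against CTL (Atf4 and Creb3l1), 2 in COMB against LPS (Atf4 and Traf2) and 0 in LPS against CTL, where 0 also had an unadjusted p under 0.05. Of all genes 11.0% were called higher in COMB against CTL and 8.64% in COMB against LPS, so a count of 2 in 12 is near the background. In LPS against CTL 3796 of 25692 probe sets had an unadjusted p under 0.05. These are mRNA levels, and splicing, cleavage and phosphorylation of the sensors were not measured.

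Genes downstream of ATF4 and CHOP were called in each comparison of COMB. Of 34 tested, 11 were higher and 5 lower in COMB against CTL, 8 higher and 0 lower in COMB against LPS, 16 higher and 3 lower in COMB against HPO (9.18% and 9.36% of genes), and 3 higher and 1 lower in LPS against CTL. Over all genes 11.0% were higher and 11.0% lower in COMB against CTL, 8.64% and 5.04% in COMB against LPS, and 1.24% and 1.54% in LPS against CTL. The median log2 fold change was 0.20 in COMB against LPS. Nupr1, a stress-induced transcription cofactor, averaged 165 ± 44.4 in COMB, 88.4 ± 20.9 in LPS, 73.8 ± 11.8 in HPO and 35.4 ± 5.20 in CTL (SD, n = 3 each), 4.48-fold higher in COMB than in CTL by limma (adjusted p = 5.45e-05). Chac1, a glutathione-degrading enzyme and CHOP-pathway gene, averaged 146 ± 17.4 in COMB, 90.3 ± 8.57 in LPS, 83.5 ± 27.2 in HPO and 60.4 ± 3.58 in CTL (2.38-fold in COMB against CTL, limma adjusted p = 6.38e-04). Slc7a11, the cystine transporter, was 2.76-fold higher in COMB than in LPS (adjusted p = 0.0103) and Ddit4 3.91-fold (adjusted p = 0.0196), although Ddit4 pools in COMB ranged from 79.7 to 336. Vldlr, a lipoprotein receptor, was lower in COMB than in CTL (fold 0.340, adjusted p = 0.00863). In HPO against CTL none of the 34 was called by limma. An unadjusted p under 0.05 was found for 5 of them and for 2494 of 25692 probe sets.

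Degradation, translocation and transport gave more calls in COMB against CTL than in LPS against CTL, as did all genes. Of 25 genes of ER-associated degradation, 0 were called in LPS against CTL (4 had an unadjusted p under 0.05), and 2 were higher and 3 lower in COMB against CTL. The 3 lower genes were Herpud2 (log2 fold change -0.69), Edem1 (-0.51) and Edem2 (-0.46), the EDEM proteins being those that mark misfolded glycoproteins for disposal. In COMB against LPS, 4 of the 25 were higher and 2 lower, where 8.64% of genes were higher and 5.04% lower. Syvn1, the ubiquitin ligase HRD1 of this route, was lower in COMB than in LPS (329 ± 37.3 and 447 ± 18.8, SD, n = 3 each, limma adjusted p = 0.0126), and Erlec1, a lectin, was higher (651 ± 62.1 and 405 ± 46.0, adjusted p = 0.00458). Of 30 translocon and signal peptidase genes, 7 were higher and 0 lower in COMB against CTL, led by Ostc (1.70-fold) and Srpra (1.52-fold), and 1, Stt3b, was higher in LPS against CTL. Of 23 ER to Golgi transport genes, 3 were higher and 1 lower in COMB against CTL, with Sec23b, a subunit of the COPII coat, 1.67-fold higher, and 0 were called in LPS against CTL (5 had an unadjusted p under 0.05). In COMB against CTL these counts stand beside 11.0% of genes called higher and 11.0% called lower. In LPS against CTL they stand beside 1.24% called higher and 1.54% lower. An unadjusted p under 0.05 was found for 3796 of 25692 probe sets in that comparison.

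Heat shock genes of the cytosol and mitochondria, many of which are driven by HSF1, were called as well. Of 21 tested, 9 were higher and 0 lower in LPS against CTL, 0 higher and 12 lower in COMB against LPS, and 1 higher and 0 lower in COMB against CTL. Over all genes 1.24% were higher in LPS against CTL, 5.04% lower in COMB against LPS and 11.0% higher in COMB against CTL. The 1 gene called in COMB against CTL was Hspa9, a mitochondrial chaperone (log2 fold change 0.48, limma adjusted p = 0.0203). Hsph1, a large cytosolic chaperone, averaged 640 ± 17.0 in COMB, 1802 ± 423 in LPS, 307 ± 48.6 in HPO and 507 ± 23.1 in CTL (SD, n = 3 each). It was 3.49-fold higher in LPS than in CTL (limma adjusted p = 3.00e-04), and its COMB to LPS ratio was 0.362 (adjusted p = 5.63e-04). In Hspa1a, the inducible Hsp70, COMB pools ranged from 132 to 178, LPS pools from 541 to 752, HPO pools from 77.7 to 111 and CTL pools from 156 to 454. In COMB against HPO 5 were higher and 0 lower, where 9.18% of genes were higher and 9.36% lower. The list's median in COMB against CTL was -0.02, beside 0.38 for the 10 ER genes. For the 33 other ER chaperones and foldases it was 0.02, with 17 above 0 and 16 below. Differences between these lists were not tested. In HPO against CTL, 18 of 21 were below 0 with a median of -0.23, where 50.6% of probe sets were below 0. By limma 0 were called and 11 had an unadjusted p under 0.05, as did 2494 of 25692 probe sets.

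Marker intensities of several cell types differed between the groups. They do not separate numbers of cells from RNA per cell, and the part of cell makeup in these results was not tested. Of 12 airway epithelium markers, 12 were called higher in COMB against CTL, and their summed intensity was 15370 to 21804 in COMB, 10184 to 11277 in LPS, 10899 to 12063 in HPO and 5431 to 7862 in CTL. The 8 neutrophil markers tested summed to 6634 to 11347 in COMB, 2164 to 2847 in LPS, 316 to 494 in HPO and 497 to 3020 in CTL, with 4 called higher and 1 lower in COMB against CTL. In LPS against CTL 1 of the 8 was called higher, Lcn2 (39.0-fold), and 1 lower, Camp. Over all genes 11.0% were called higher and 11.0% lower in COMB against CTL. In LPS against CTL these shares were 1.24% and 1.54%. The 9 alveolar macrophage markers tested summed to 22344 to 24211 in COMB, 26309 to 29184 in LPS, 25700 to 26201 in HPO and 25571 to 26897 in CTL. The COMB range lay below all others, and 3 of these markers (Pparg, Lpl and Abcg1) were lower in COMB than in CTL while Car4 was higher; Marco, Msr1 and Siglec1 had no probe set of their own among those tested. T and NK cell markers summed to 986 in the COMB pool of rats 2 and 3 and to 5732 and 3817 in the other COMB pools, against 472 to 859 in LPS, 728 to 853 in HPO and 484 to 1911 in CTL. The pool with the low T and NK sum was also that with the low Ddit3 intensity. Its neutrophil sum, 9583, lay between those of the other COMB pools, and no relation of markers to Ddit3 was tested. The 7 B and plasma cell markers tested summed to 396 to 1619 in COMB, 237 to 333 in LPS, 301 to 470.1 in HPO and 232 to 789 in CTL. Monocyte markers (2 tested) summed to 1210 to 1625 in COMB, 619 to 903 in LPS, 136 to 215 in HPO and 120 to 626 in CTL, alveolar epithelium markers (9) to 2628 to 3943 in COMB, 1541 to 1699 in LPS, 1407 to 1782 in HPO and 994 to 1216 in CTL, and erythrocyte markers (2) to 9696 to 12617 in COMB, 6264 to 11256 in LPS, 7834 to 11515 in HPO and 2497 to 11815 in CTL.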

How the data were processed

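Total RNA of BALF cells was pooled within groups and measured on 12 arrays (Affymetrix Rat Genome 230 2.0). The deposited values are 1 linear intensity for each of 31099 probe sets and array, produced by the authors from the array scans; the sources used here name no normalization method. Groups came from the labels.

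The 57 controls were left out, and probe sets above the 20th percentile of their array in at least 3 arrays were tested (25692). log2(intensity + 1) was fitted with 4 group means in limma 3.58.1 (R 4.3.3; residual degrees of freedom 8, prior 3.94), with 5 comparisons and the interaction. limma p values were adjusted by Benjamini-Hochberg across every tested probe set, and 0.05 was the limit for a call. Each gene was read from the brightest probe set (mean log2) that names it alone. The fit was tested on simulated data.

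The members and the 16 lists were chosen with earlier results of these data known. All 10 members are named, Ern1, Eif2ak3, Atf6 and Atf4 always, from each other list up to 4 called genes per comparison with the largest change, and for Hspa5 and Ddit3 the 10 genes of highest correlation. P4hb was named after its values were seen. Alternatives were other normalization, filters, pseudocount (16), weights, variance prior, samples in the fit, a block, the mean of a gene's probe sets, an unpaired t-test with equal variances (the methods name a paired one, but the pools hold different rats, and the Benjamini-Hochberg step was added here), the 2-fold criterion of the methods and leaving out each array. Promoters and names are from RefSeq (GRCr8); no probe positions were used. Nothing in the labels says whether pools were prepared together, and p values measure only the spread between pools. Depth has no count here; the 12 arrays limit the precision.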

Additional observations from a re-analysis of the deposited data

How the results depend on the processing

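No called value of the 10 genes changed direction under any setting tried, and none of the changes below has a tested cause. Under 13 other settings, the 30 called values gave 390 values, of which 343 stayed called and 47 did not; the unpaired t-test with Benjamini-Hochberg adjustment accounted for 29 of the 47. Of the 360 values of the 30 uncalled, 23 became called and 2 changed sign.

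With array weights the count of the 10 genes was 5 in HPO against CTL and 1 in the interaction; a trended and robust prior gave 1 in HPO against CTL. With only the groups compared it was 3 in COMB against CTL and 3 in COMB against LPS. The methods name a paired t-test without adjustment; the pools hold different rats, so an unpaired one was run. It called 5 of the 10 unadjusted in HPO against CTL and lost 1 call, Ddit3 in COMB against CTL; after Benjamini-Hochberg it called 1 in COMB against CTL and 0 in each of LPS against CTL, COMB against HPO and COMB against LPS. With the 2-fold criterion and no test, 1 gene passed in COMB against CTL, 1 in LPS against CTL, 0 in COMB against LPS and 3 in COMB against HPO.

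Over all probe sets the calls were 4895 in COMB against CTL, 525 in LPS against CTL, 9 in HPO against CTL, 4004 in COMB against HPO, 3060 in COMB against LPS and 35 in the interaction. The interaction had 83 with quantile normalization (39 higher and 44 lower, against 23 and 12), 56 with a filter at the 50th percentile, 78 with a pseudocount of 16, 2116 with array weights, 114 with a trended and robust prior and 20 with 1 mean value per gene. HPO against CTL had 14 with the 50th percentile, 5 with a pseudocount of 16, 3576 with array weights, 21 with weights by number of rats, 14 with a trended and robust prior, 63 with only its groups, 0 with 1 mean value per gene, and 2225 unadjusted and 0 adjusted by the unpaired t-test; 9 higher and 0 lower became 8 and 1 with centred arrays. Array weights gave 3702 in LPS against CTL, 4635 in COMB against LPS and 6774 in COMB against HPO. Only the groups compared gave 1147, 1734 and 1933 in these. One mean value per gene, which tests fewer features, gave 2939 in COMB against CTL, 1839 in COMB against LPS and 2462 in COMB against HPO. The unpaired t-test gave 4425 unadjusted and 1 adjusted in LPS against CTL, 5843 and 14 in COMB against LPS, and 544 and 17 adjusted in COMB against CTL and COMB against HPO. At 2-fold there were 1387 in COMB against CTL, 172 in HPO against CTL, 245 in LPS against CTL, 1116 in COMB against HPO and 970 in COMB against LPS.

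Leaving out 1 array at a time, the count of the 10 genes ranged from 3 to 9 in COMB against CTL, 4 to 8 in LPS against CTL, 0 to 2 in HPO against CTL, 7 to 8 in COMB against HPO, 3 to 6 in COMB against LPS and 0 to 1 in the interaction. The probe sets called, in the same order of comparisons, ranged from 3106 to 5677, 64 to 783, 0 to 120, 2880 to 4289, 1526 to 3868 and 2 to 643. Of 360 such values of called genes 66 were no longer called.

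Some pools of different groups share a first rat number, but they hold different rats: with that number as a replicate block (consensus correlation -0.107; pairs from -0.193 to 0.259) 8 genes were called in COMB against CTL and 7 in LPS against CTL, without Pdia6 and Herpud1, and the other 4 counts were as before.

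The intensities carry no depth. Ddit3 was the dimmest of the 10, at the 59.4th percentile of its array or above.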
